A study of Mus musculus with 38 samples.

Results

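The genes described here are 10 stress-responsive genes chosen by symbol: the immediate early genes Fos, Fosb, Jun, Junb, Egr1, Atf3 and Ier2, and the heat shock genes Hspa1a, Hspa1b and Dnajb1. All 10 had a row among the 21441 genes of each of 3 expression tables, 1 per tissue, made by RNA-seq from mouse intestine. The mice were wild type, on the C57BL6/J background and vitamin D deficient in every group, controls included. Each mouse was injected intraperitoneally with 1,25(OH)2D3, the active vitamin D hormone, at a dose of 10 ng/g, or with 0.1 ml vehicle (propylene glycol with ethanol), and was killed 4 h later. Villi had 6 vehicle and 7 vitamin D libraries, crypts 6 and 6, and colon 6 and 7, which makes 38 in all. The labels give an age of 10 to 13.3 weeks in one field and 12 to 14 weeks in another, and call males and females pooled. Nothing in them says whether 2 libraries came from separate mice, and p-values therefore measure the spread between libraries, which may be technical.

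Immediate early genes are transcribed soon after a stimulus from factors already present in the cell, so their messages rise fast and decay fast. Fos, Fosb, Jun and Junb encode subunits of the AP-1 transcription factor, Egr1 a zinc finger factor, Atf3 a stress-induced bZIP factor and Ier2 a small nuclear protein. Hspa1a and Hspa1b encode the inducible HSP70 chaperone and Dnajb1 an HSP40 partner of it, all targets of the heat shock factor HSF1, and both families are known to respond to the handling of fresh tissue. Per the labels' protocols, villi and crypts were loosened from the proximal small intestine in cold 3 mM EDTA and parted on a 70 µm filter, and colon epithelium was scraped from the muscle with a glass slide, although the description of each colon sample repeats the EDTA steps. If the protocol holds, tissue and handling cannot be told apart between colon and the other two tables, while villi and crypts shared their handling.

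The upstream stretches of 5 of the genes are shown first, because Hspa1a and Hspa1b varied together from library to library and Jun and Junb had fold changes of opposite sign. Of the 10 genes, 8 matched the RefSeq promoter table (build GRCm38.p6) by symbol. Each line gives the 130 bases before the start of the gene, 5′ to 3′ on the gene's strand, with capitals for GAANNTTC (a pair of inverted heat shock element units), TGACG (the core of a cyclic AMP response element) and TATAAA, searched on both strands.
Hspa1a: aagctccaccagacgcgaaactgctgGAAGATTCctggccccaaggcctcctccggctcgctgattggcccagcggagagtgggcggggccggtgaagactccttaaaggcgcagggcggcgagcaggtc
Hspa1b: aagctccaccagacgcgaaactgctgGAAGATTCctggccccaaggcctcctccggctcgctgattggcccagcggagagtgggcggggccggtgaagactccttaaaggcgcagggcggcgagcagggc
Jun: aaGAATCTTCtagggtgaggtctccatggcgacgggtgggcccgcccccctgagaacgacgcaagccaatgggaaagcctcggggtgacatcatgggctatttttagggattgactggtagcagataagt
Fos: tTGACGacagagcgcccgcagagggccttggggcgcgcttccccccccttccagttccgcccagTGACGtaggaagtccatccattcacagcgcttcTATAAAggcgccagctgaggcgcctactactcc
Junb: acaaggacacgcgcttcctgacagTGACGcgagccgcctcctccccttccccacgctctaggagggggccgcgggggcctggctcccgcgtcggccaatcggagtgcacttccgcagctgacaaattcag
The stretches lie at chr17:34972157-34972286 (Hspa1a), chr17:34959239-34959368 (Hspa1b), chr4:95052223-95052352 (Jun) and chr8:84978749-84978878 (Junb), on the minus strand, and at chr12:85473760-85473889 (Fos), on the plus strand. The stretches of Hspa1a and Hspa1b were equal at 129 of 130 positions (99.2%). Both held GAANNTTC 104 bases before the start, and Jun held it 128 bases before. Within 250 bases before the start, 3 of the 8 genes (Hspa1a, Hspa1b and Jun) had this motif, against 6.69% of all 32851 windows in the table. The hits of Hspa1a and Hspa1b, near-identical here, are not independent. The other order of the units, TTCNNGAA, was in 0 of the 8 (7.17% of all windows), and Dnajb1 had neither. CCAAT was in 5 of the 8 (Dnajb1, Hspa1a, Hspa1b, Jun and Junb) and in 33.8% of all windows. TGACG stood in 5 of the 8 (Fos, Fosb, Junb, Atf3 and Dnajb1) and in 17.8% of all windows. The full AP-1 site TGACTCA was in none of the 8 (4.46% of all windows), nor was TGACGTCA, which contains TGACG (1.55%), and TATAAA was in Fos alone (12.4%). A match is a description of these letters and not a measured site.

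Hspa1a and Hspa1b are near-identical copies in their transcripts too: 63.8% of the 31-base words of the Hspa1a transcript were shared with Hspa1b, and 67.6% in the other direction. How reads were divided between the copies is therefore uncertain, and their sum is given beside each of them. Levels are FPKM (fragments scaled by transcript length and library size), and fold changes are differences of log2(FPKM + 0.5) with their standard error, a scale that understates changes of low genes. Libraries held 13.8 M to 17.5 M reads. The 3 tables are normalised separately, so levels set side by side across tissues are a description.

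Some libraries stood apart in their cell type markers or sex. Xist and Ddx3y, expressed from the inactive X and from the Y chromosome, put 24 libraries on the female side and 14 on the male side, each library showing 1 pattern. The male pattern was in 3 of 6 vehicle and 3 of 7 vitamin D libraries of villi and of colon, and in 1 of 6 and 1 of 6 of crypts. The summed FPKM of 7 villus enterocyte markers was 26850 to 43810 in villi and spread from 3457 (vehicle 4) to 34220 (vehicle 6) in crypts, with crypt vehicle 5 at 28200 and the others at or below 20290. The sum of 6 smooth muscle markers was 3276 in colon vitamin D 1 and 12070 in colon vitamin D 2, against 18.6 to 505 in the other colon libraries. Colon vehicle 5 had 1544 FPKM of 6 crypt base and proliferation markers, against 43.0 to 86.7 in the rest of colon. Lyz1 and Defa17 made up most of the 1544, with colon maxima of 502.3 and 999.7 FPKM, against 23.5 for Mki67 and 24.0 for Top2a. The mean log2 level of the villus markers was 6.05 to 7.63 in colon vehicle 5 and 6 and vitamin D 6 and 7, and 3.01 to 4.35 in the other 9 colon libraries. Epithelial markers (Epcam, Cdh1, Vil1, Krt8 and Krt19) summed to at least 2946 FPKM in every library.

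Of the 10 genes, 8 passed a filter of 1 FPKM in at least 6 libraries in villi and in crypts and 9 in colon; Fosb failed it in each tissue and Hspa1a in villi and crypts. In villi, Junb was the highest, at a median of 107.7 FPKM over all 13 libraries, followed by Fos at 60.4, Jun at 27.9, Ier2 at 19.0, Dnajb1 at 16.8, Atf3 at 7.95, Egr1 at 2.03 and Hspa1b at 1.19. The ranges of Ier2 (13.6 to 25.4) and Dnajb1 (13.2 to 18.9) overlapped, as did those of Jun (16.4 to 36.4) and Ier2, and of Egr1 and Hspa1b. In crypts the order was Junb (65.4), Ier2 (37.3), Fos (18.7), Dnajb1 (15.6), Jun (10.9), Atf3 (2.62), Egr1 (1.92) and Hspa1b (1.19), and in colon it was Junb (128.5), Ier2 (48.5), Jun (36.1), Fos (31.9), Dnajb1 (17.7), Atf3 (11.8), Hspa1b (8.42), Egr1 (6.64) and Hspa1a (3.36). Fosb, the least expressed of the AP-1 genes, had medians of 0.418, 0 and 0.535 FPKM, and was listed at 0 in 2 villus, 9 crypt and 1 colon libraries. Hspa1a had medians of 0.385 FPKM in villi and 0.314 in crypts.

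**Figure D1:**
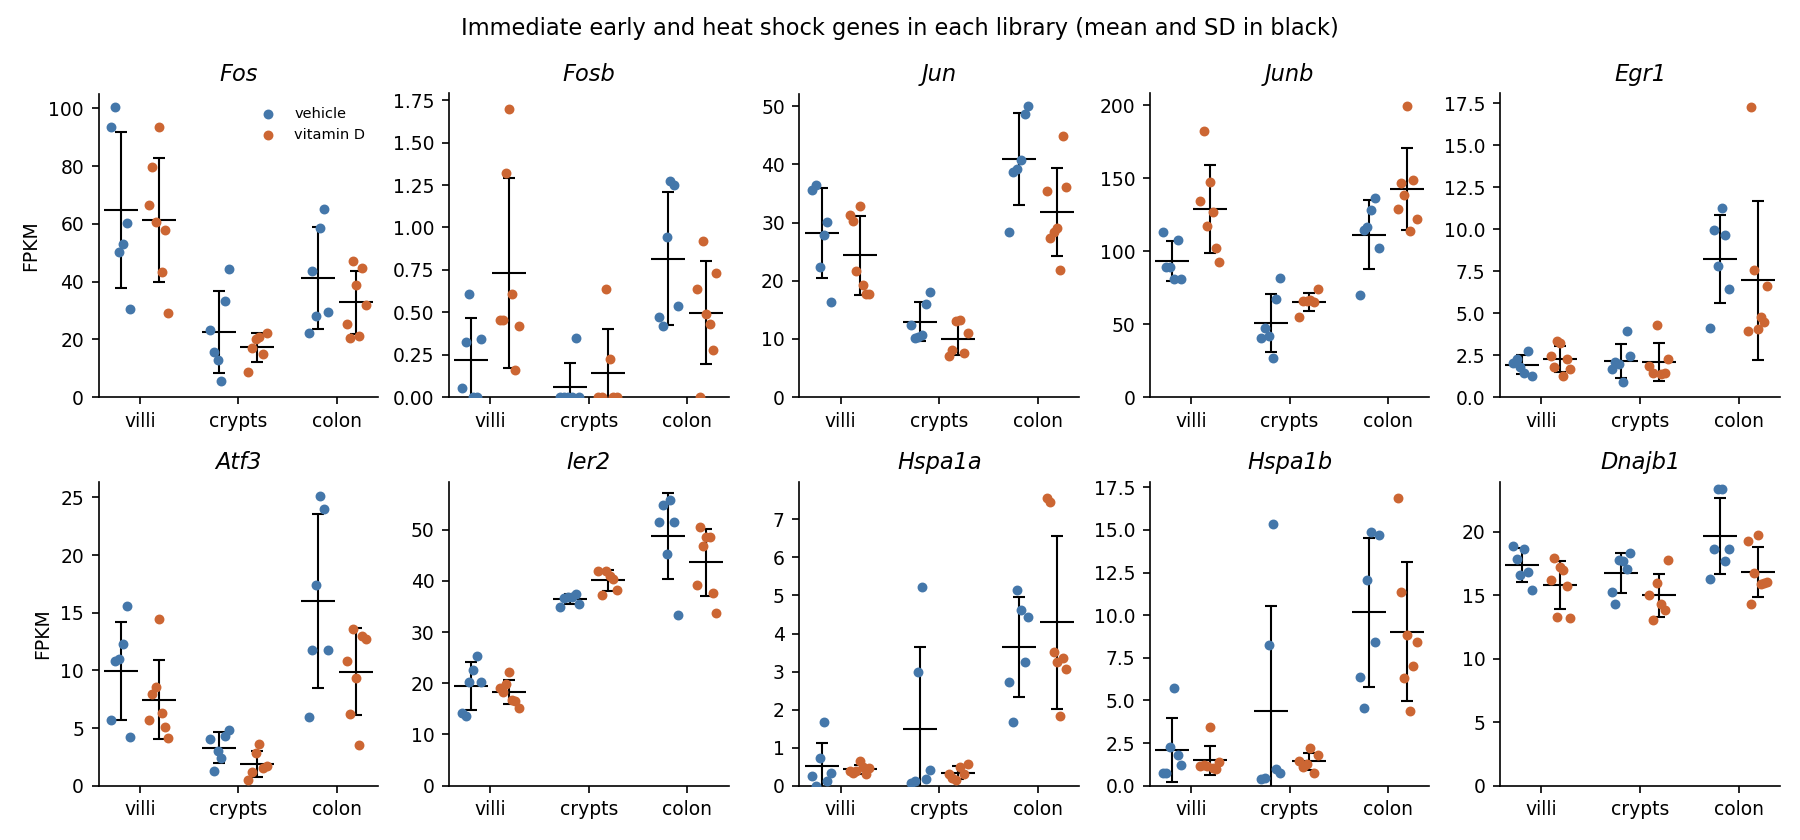
FPKM of each gene (vertical axes, each from 0, different scales) in villi, crypts and colon, with 1 point per library, blue for vehicle and orange for vitamin D; black bars are the mean and SD over 6 or 7 libraries. Fos, Jun, Junb and Atf3 have their lowest medians in crypts, the 2 Hspa1 genes have their highest medians in colon, and vehicle and vitamin D points overlap in every panel.

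Fos had its highest median in villi, with a range that overlapped those of the other tissues. Its percentile among all genes of a library was 89.2 to 95.9 in villi, 81.6 to 93.1 in colon and 64.8 to 89.3 in crypts. The percentile does not depend on the scale of a table, but the levels of all other genes in a tissue shift it. For example, Hspa1b had a median of 1.19 FPKM in villi and in crypts, at median percentiles of 56.8 and 51.1. Within a tissue its highest library exceeded the lowest 3.43 times in villi, 3.18 times in colon and 7.99 times in crypts. Atf3 spread more, 10.6 times in crypts and 7.04 times in colon, whereas Dnajb1 spread 1.44, 1.41 and 1.63 times and Ier2 in crypts 1.20 times.

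Between tissues, the authors' deposited tables compare the vitamin D libraries, with 61.9% of all genes called between villi and crypts, 64.7% between villi and colon and 56.5% between crypts and colon, so that a call by itself sets a gene little apart. In the authors' deposited table of crypts against villi, 7 of the 10 genes were lower in crypts (30.4% of all genes), 1 was higher (31.6%) and 2 were not called. The 7 include Fosb and Hspa1a, which failed the filter of 1 FPKM in villi and in crypts. Fos was lower by a log2 of -2.32 ± 0.27 (adjusted p = 2.2e-17), Atf3 by -2.49 ± 0.40 and Jun by -1.78 ± 0.22 in that authors' deposited table. Ier2 was the gene that was higher in crypts there, by 0.65 ± 0.09 (adjusted p = 3.2e-11 in the authors' deposited table), and Egr1 and Hspa1b were not called. In the authors' deposited table of colon against villi, 4 of the 10 genes were higher in colon (37.8% of all genes), 3 lower (27.0%) and 3 not called. There, in the authors' deposited table, Hspa1a was higher in colon by 2.62 ± 0.34 (adjusted p = 1.2e-13), Hspa1b by 1.91 ± 0.34, Egr1 by 0.91 ± 0.35 and Ier2 by 0.56 ± 0.12. The authors' deposited log2 differences lay a median of -0.68 from those of the FPKM over genes in that pair of tissues (-0.48 for crypts against villi and -0.08 for colon against crypts). Junb (-0.55) and Dnajb1 (-0.60) were lower in colon than villi in the authors' deposited table, whereas their mean FPKM was higher in colon (142.7 against 129.1, and 16.9 against 15.8), so their direction depends on the scaling. Of the genes called lower in crypts than villi, Dnajb1 (-0.56) had mean FPKM of 15.0 against 15.8. Hspa1a (-0.83) had 0.342 against 0.432, so the size of these 2 differences depends on the scaling too. Against crypts, 7 of the 10 genes were higher in colon (32.6% of all genes) and 0 lower (23.9%) in the authors' deposited table, led by Hspa1a (3.58 ± 0.41), Hspa1b (2.58 ± 0.32) and Atf3 (2.33 ± 0.42), and Fosb, Ier2 and Dnajb1 were not called.

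Among the AP-1 genes tested, the fold change with vitamin D was positive in each tissue for Junb and negative in each for Jun and Fos, and none of them was called. By limma over all genes that passed the filter, 0 of 8 tested members were called in villi, where 2.47% of all genes were called, 0 of 8 in crypts (1.46%) and 0 of 9 in colon (0.823%). Blocking on replicate number, the crypt genes called went from 157 to 444, and still 0 members were called. At an unadjusted p under 0.05 there were 1 (Junb), 1 (Ier2) and 2 (Jun and Junb), against 12.2%, 15.3% and 8.05% of all genes tested. The median log2 fold change of the tested members was -0.10 in villi, -0.16 in crypts and -0.21 in colon, against -0.01, -0.01 and 0.00 over all genes tested, and 2 of the members were positive in each tissue. The authors' deposited tables also called 0 of the 10 genes in each tissue, with 3.6%, 4.28% and 1.64% of all genes called. No member had groups that did not overlap, which 1.92%, 1.75% and 0.867% of all genes had in villi, crypts and colon.

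In villi Junb, the AP-1 subunit with the highest level, read 80.8, 89.0 and 113.4 FPKM (lowest, median and highest) with vehicle and 92.8, 126.8 and 182.4 with vitamin D. In villi 5 of the 7 treated libraries exceeded the vehicle maximum and the others lay within the vehicle range, so the groups overlapped. The means were 93.5 ± 13.8 (SD, n = 6) and 129.1 ± 30.0 (n = 7), a log2 fold change of 0.44 ± 0.15 (limma, unadjusted p = 0.0089, adjusted p = 0.175). On the TPM scale (each library brought to the same sum of FPKM) it was 0.46 ± 0.11 with an adjusted p of 0.0392, which passes the threshold, as 2.43% of all genes did. Title numbers pair 6 vehicle with 6 vitamin D libraries in villi, and Junb was higher with vitamin D in 6 of 6 pairs, the 1 of 8 tested members with 1 sign throughout (11.4% of all genes). The column names do not match the titles there. By their style and number, vehicle 6 (81.2 FPKM) would pair with vitamin D 7 (92.8) and not with vitamin D 6 (102.2). In crypts Junb read 26.5, 44.5 and 81.5 FPKM with vehicle and 54.9, 65.8 and 73.8 with vitamin D, and the vitamin D libraries all lay inside the vehicle range. The 2 highest vehicle values were those of vehicle 6 (81.5) and vehicle 5 (67.6), the libraries with the most villus marker RNA. The log2 fold change in crypts was 0.45 ± 0.22 (limma, adjusted p = 0.358). Without vehicle 5 and 6 it was 0.76 ± 0.15 (adjusted p = 0.0377), and with the villus marker level as a covariate 0.63 ± 0.10 (adjusted p = 0.0047), where 0.933% and 3.74% of all genes were called; without vehicle 3 and 4 it was 0.19 ± 0.18 (adjusted p = 0.525), and without vehicle 4 alone 0.28 ± 0.17. These libraries and the covariate were chosen after the data were seen, except that each library was left out by plan. In colon Junb read 70.0, 115.5 and 136.6 FPKM with vehicle and 114.2, 138.5 and 199.5 with vitamin D, and 4 of the 7 treated libraries exceeded the vehicle maximum. Its log2 fold change there was 0.37 ± 0.16 (limma, unadjusted p = 0.0358, adjusted p = 0.554).

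Jun, the partner of Fos in the classical AP-1 dimer, had a negative fold change in each tissue. In colon Jun read 28.3, 40.0 and 50.1 FPKM with vehicle and 21.8, 29.1 and 44.8 with vitamin D, and 3 of the 7 vitamin D libraries lay below every vehicle library. The log2 fold change was -0.37 ± 0.16 (limma, unadjusted p = 0.0416, adjusted p = 0.574). In crypts Jun read 10.2, 11.6 and 18.1 with vehicle and 7.01, 9.58 and 13.3 with vitamin D (-0.37 ± 0.19, adjusted p = 0.40), again with 3 libraries below the vehicle range. In villi it read 16.4, 29.0 and 36.4 against 17.7, 21.7 and 32.8 (-0.20 ± 0.21, adjusted p = 0.769), with no library outside the vehicle range. In colon the 3 highest Jun values, 50.1, 48.7 and 44.8, were in vehicle 6, vehicle 5 and vitamin D 6, which stood apart in villus markers. Without these and vitamin D 7 the colon values were -0.37 ± 0.15 for Jun and 0.45 ± 0.20 for Junb (limma, adjusted p = 0.409 and 0.458), a choice made after the data were seen.

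Since Junb and Jun had opposite signs, their ratio within each library was formed after these values were seen, as a description with no test. In crypts the Junb to Jun ratio of FPKM was 2.47, 4.11 and 4.64 (lowest, median and highest) with vehicle and 5.00, 7.25 and 8.59 with vitamin D. All 6 vitamin D libraries of crypts lay above the vehicle libraries, as did 1.1% of all genes when set over Jun in the same way. In colon it was 2.04, 2.88 and 3.15 with vehicle and 3.32, 4.89 and 6.86 with vitamin D, and all 7 lay above (1.42% of all genes). The colon vitamin D 1 and 2 libraries, which held muscle RNA, had ratios of 3.64 and 5.34, between those of the other 5. The lowest vitamin D ratios, 3.32 and 3.37, were in vitamin D 6 and 7, which were high in villus markers, as were vehicle 5 and 6 (2.81 and 2.04). In villi it was 2.45, 3.38 and 4.94 against 4.29, 5.41 and 6.55, with 5 of 7 vitamin D libraries above (0.762% of all genes had all 7 above). The lowest vitamin D ratio in villi was that of vitamin D 1, and the vehicle library that reached into the vitamin D range was vehicle 6.

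**Figure D2:**
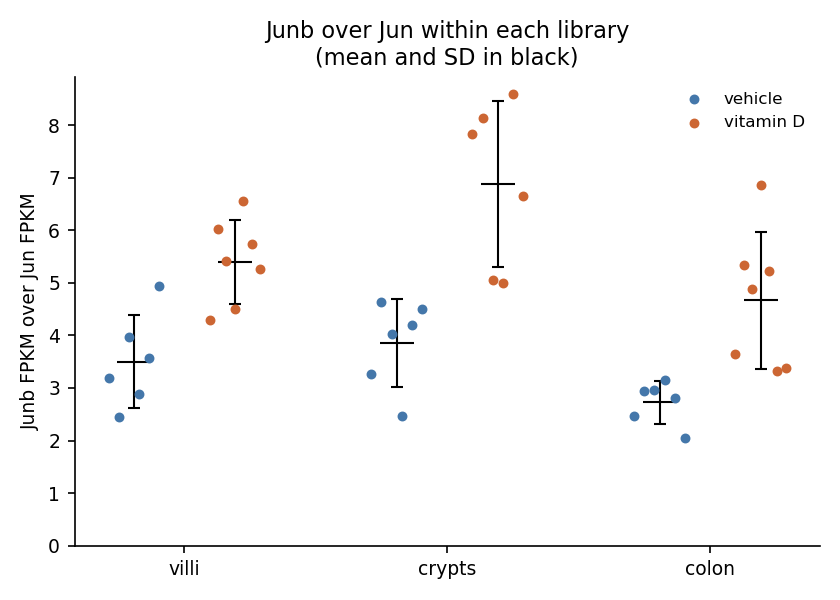
Ratio of Junb FPKM to Jun FPKM (vertical axis, from 0) in each library of villi, crypts and colon, blue for vehicle and orange for vitamin D; black bars are the mean and SD over 6 or 7 libraries. The vitamin D points lie above all vehicle points in crypts and colon and overlap them in villi (4.29 to 6.55 against 2.45 to 4.94).

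At 4 h, the only time sampled, Fos itself did not differ between the groups beyond its spread. Earlier changes of Fos and of the other members were not measured. In villi it read 30.5, 56.7 and 100.4 FPKM with vehicle and 29.2, 60.5 and 93.4 with vitamin D (-0.05 ± 0.30, limma, adjusted p = 0.969). In colon it read 22.3, 36.6 and 65.3 against 20.5, 31.9 and 47.2 (-0.28 ± 0.28, adjusted p = 0.884). In both tissues the groups overlapped, with 1 vitamin D library below the vehicle range in villi and 2 in colon. In crypts it read 5.56, 19.5 and 44.4 against 8.54, 18.7 and 22.2 (-0.16 ± 0.42, adjusted p = 0.884), so the vitamin D libraries all lay inside the vehicle range. The intervals are wide: in crypts the 95% confidence interval of the Fos fold change ran from -1.06 to 0.74. Fosb failed the filter of 1 FPKM in 6 libraries in each tissue. In villi it read 0, 0.19 and 0.606 FPKM with vehicle and 0.158, 0.454 and 1.70 with vitamin D, between 0 and 91.0 reads a library, with 3 of 7 vitamin D libraries above the vehicle range. Without the filter its log2 difference in villi was 0.72 ± 0.28 (limma, adjusted p = 0.413).

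Atf3, which represses and activates targets in stress responses, had the most negative fold change of the tested members in each tissue. In crypts it read 1.31, 3.51 and 4.80 FPKM with vehicle and 0.453, 1.59 and 3.58 with vitamin D, with 2 of 6 vitamin D libraries below the vehicle range (-0.74 ± 0.35, limma, adjusted p = 0.335). In colon it read 5.94, 14.6 and 25.1 against 3.56, 10.9 and 13.6 (-0.63 ± 0.35, adjusted p = 0.747), and in villi 4.18, 10.9 and 15.6 against 4.15, 6.27 and 14.5 (-0.36 ± 0.31, adjusted p = 0.717). The groups overlapped in each tissue. Egr1 read 4.14, 8.73 and 11.3 in colon with vehicle and 3.92, 4.80 and 17.3 with vitamin D (-0.34 ± 0.31, adjusted p = 0.879). The 17.3 came from vitamin D 2, the colon library with the most muscle RNA, and without vitamin D 1 and 2 the value was -0.51 ± 0.24 (adjusted p = 0.759). In villi Egr1 had medians of 1.93 and 2.25 FPKM (0.17 ± 0.20, adjusted p = 0.795) and in crypts of 2.03 and 1.65 (-0.03 ± 0.29, adjusted p = 0.969).

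Ier2 was the steadiest of the genes in crypts, where it read 35.0, 36.8 and 37.5 FPKM with vehicle and 37.2, 40.7 and 42.0 with vitamin D. In crypts 5 of 6 vitamin D libraries lay above every vehicle library and the remaining one, vitamin D 2, inside the vehicle range. The difference was small, 0.14 ± 0.06 (limma, unadjusted p = 0.0378, adjusted p = 0.299). Of the 6 crypt pairs by title number, Ier2 was higher with vitamin D in 6 and Dnajb1 lower in 6, and these were the 2 of 8 tested members with 1 sign throughout (12.7% of all genes). In villi (-0.06 ± 0.14) and colon (-0.15 ± 0.13) it had the opposite sign, with adjusted p of 0.917 and 0.874.

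**Figure D3:**
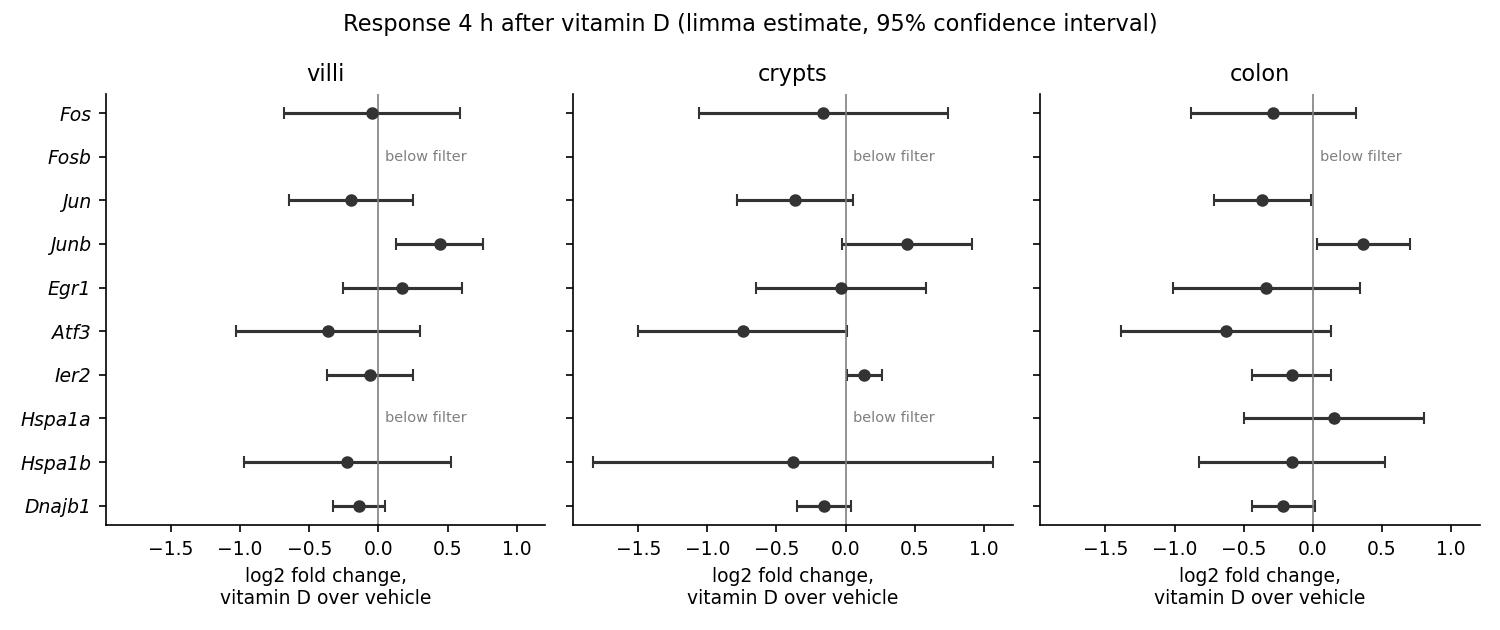
Log2 fold change of each gene, vitamin D over vehicle (horizontal axis), with the limma estimate as a point and its 95% confidence interval as a line, in villi, crypts and colon. Junb is the gene whose points lie right of 0 in each tissue (0.44, 0.45 and 0.37), Jun, Fos, Atf3 and Dnajb1 lie left of 0, and genes under the filter have no point.

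The levels of the Hspa1 genes were set apart by a few libraries. In crypts Hspa1b read 0.418, 0.423, 8.27, 15.4, 0.976 and 0.739 FPKM in vehicle 1 to 6 and 0.767, 1.37 and 2.21 (lowest, median and highest) with vitamin D. Crypt vehicle 3 and 4 alone were high, and the other 4 vehicle libraries lay at or below 0.976. Hspa1a read 2.99 and 5.23 in the same 2 libraries and at most 0.413 in the other vehicle libraries of crypts. In villi Hspa1b read 0.754, 0.772, 2.27, 5.70, 1.78 and 1.23 in vehicle 1 to 6, again with vehicle 4 and then vehicle 3 the highest, and 3.43 in vitamin D 4 against 0.975 to 1.39 in the other vitamin D libraries. In colon it read 6.36, 4.55, 12.1, 14.9, 8.42 and 14.7 in vehicle 1 to 6, so vehicle 4 was the highest of the vehicle libraries, with vehicle 6 close to it, and colon vitamin D 1 was higher still at 16.9. Villus vehicle 4 was also the villus library with the highest summed crypt base and proliferation markers (2672 FPKM, the others 51.3 to 1197). Nearly all of the 2672 was Lyz1 and Defa17 (villus maxima of 999.9 and 1647 FPKM), as Mki67 and Top2a reached at most 9.12 and 12.8. Crypt vehicle 4 was the crypt library with the least villus marker RNA. The part of crypt base and villus cells in the Hspa1 levels was not tested, and whether a replicate number marks 1 mouse across tissues is unknown.

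With vitamin D, Hspa1b changed by -0.38 ± 0.67 in crypts (limma, adjusted p = 0.816), -0.22 ± 0.35 in villi (0.865) and -0.15 ± 0.31 in colon (0.94). Without vehicle 4 the sign turned in crypts (0.16) and in villi (0.08). The sum of the 2 copies gave -0.43 ± 0.71, -0.14 ± 0.37 and -0.06 ± 0.32, with adjusted p of 0.80, 0.923 and 0.984. The authors' deposited table gives Hspa1b a log2 of -1.61 ± 0.77 in crypts (adjusted p = 0.273) and Hspa1a -2.13 ± 0.87 (adjusted p = 0.164). Mean FPKM in crypts was 4.37 with vehicle and 1.435 with vitamin D for Hspa1b, and 1.50 and 0.342 for Hspa1a. Vehicle 3 and 4 weigh most in these vehicle means, and the medians of Hspa1b were 0.857 and 1.37. In colon Hspa1a read 1.67, 3.83 and 5.14 with vehicle and 1.83, 3.36 and 7.57 with vitamin D (0.15 ± 0.30, adjusted p = 0.934). Its 2 highest values, 7.57 and 7.46, were in vitamin D 1 and 2, the libraries with muscle RNA, and without them the value was -0.19 ± 0.25 (adjusted p = 1.00). Across the 13 colon libraries Hspa1a and the smooth muscle marker level had a Pearson r of 0.672 (permutation p = 0.0116, adjusted over 9 genes 0.104) and a Spearman rho of 0.445 (permutation p = 0.131), and r was 0.173 without vitamin D 1 and 2, so the relation rests on those libraries.

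Dnajb1 varied far less than the 2 Hspa1 genes. In crypts it read 14.3, 17.4 and 18.3 FPKM with vehicle, with 17.8 and 17.7 in vehicle 3 and 4, and 13.0, 14.7 and 17.8 with vitamin D (-0.16 ± 0.09, limma, adjusted p = 0.45). In colon it read 16.3, 18.7 and 23.4 against 14.3, 16.1 and 19.8, with 4 of 7 vitamin D libraries below every vehicle library (-0.21 ± 0.11, adjusted p = 0.662). In villi it read 15.4, 17.4 and 18.9 against 13.2, 16.2 and 18.0 (-0.14 ± 0.09, adjusted p = 0.60).

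**Figure D4:**
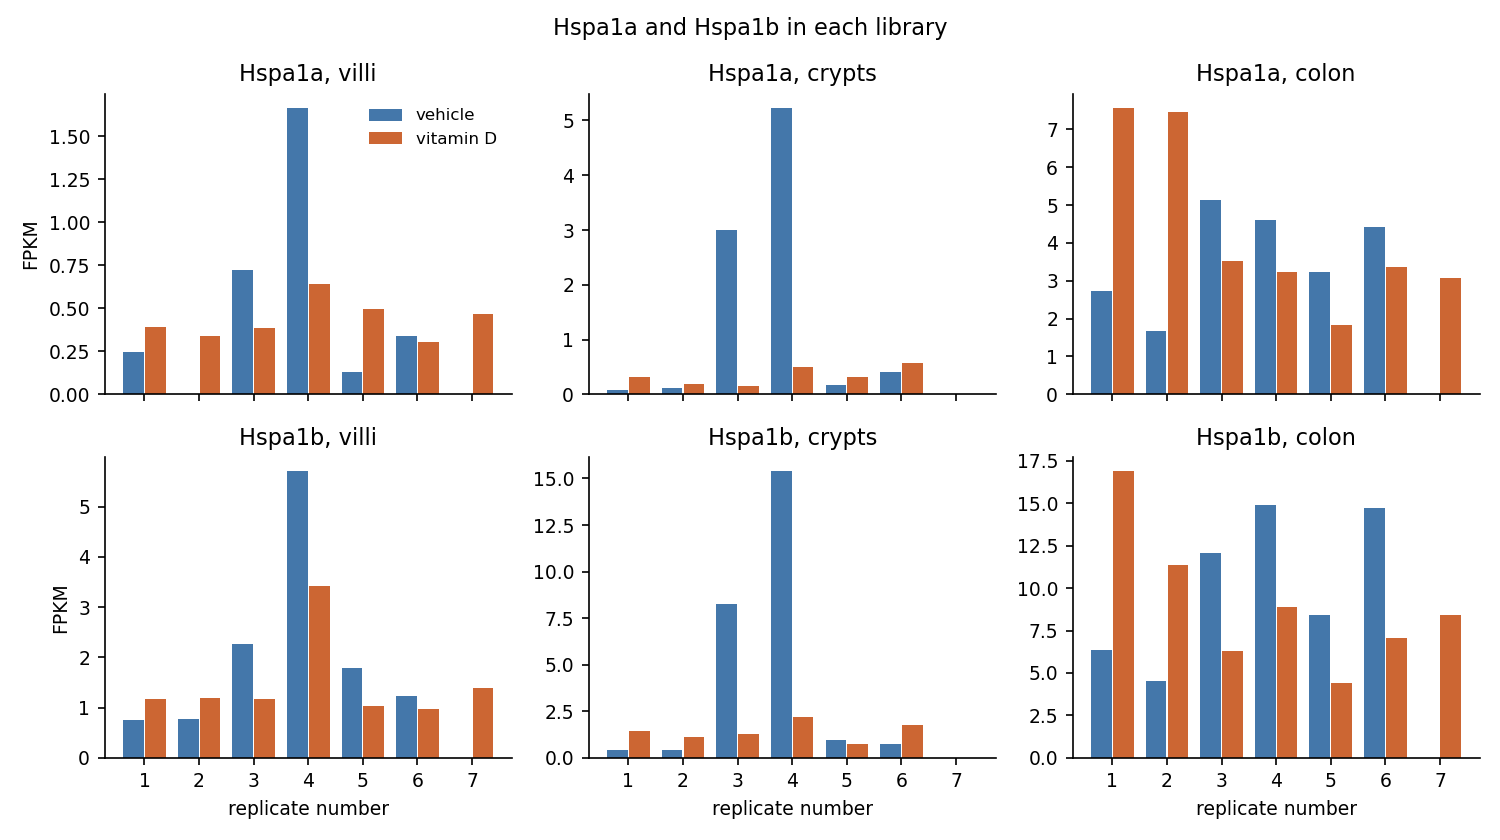
FPKM of Hspa1a (top) and Hspa1b (bottom) in each library by replicate number (horizontal axis), vehicle in blue and vitamin D in orange, in villi, crypts and colon; bars start at 0 and scales differ. Vehicle 3 and 4 are the high libraries of crypts (8.27 and 15.4 for Hspa1b), vehicle 4 is also the highest for Hspa1b in villi and the highest vehicle library in colon, and colon vitamin D 1 and 2 are the highest for Hspa1a.

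From library to library Fos and Jun moved together, and so did the 2 Hspa1 genes. Of 6 pairs of genes followed in 3 tissues, on log2(FPKM + 0.5) over 12 or 13 libraries that each share 1 normalisation, 6 of the 18 relations passed by Pearson's r at an adjusted permutation p under 0.05. Fos and Jun had r = 0.873 and rho = 0.912 in villi (permutation p = 2e-05 and 3e-05, adjusted 0.00036 and 0.00054), and r = 0.709 and rho = 0.79 in crypts (permutation p = 0.00989 and 0.00359, adjusted 0.0297 and 0.0129). Without the 2 libraries farthest in Fos, r was 0.802 in villi and 0.844 in crypts, and within the 8 libraries with plain column names it was 0.844 and 0.493. In colon the stronger partner of Fos was Atf3, with r = 0.807 and rho = 0.797 (permutation p = 0.00068 and 0.0019, adjusted 0.00306 and 0.0114), r = 0.66 without vehicle 4 and 5 and r = 0.744 within the plain-named libraries. Fos and Jun in colon gave r = 0.561 (permutation p = 0.0478, adjusted 0.0782) and rho = 0.582 (permutation p = 0.0407, adjusted 0.0814). Hspa1a and Hspa1b, whose reads cannot be fully parted, had r = 0.822, 0.964 and 0.877 in villi, crypts and colon (adjusted permutation p = 0.0036, 0.00054 and 0.00054) and rho = 0.659, 0.797 and 0.824 (0.0419, 0.0129 and 0.00891). Without the 2 libraries farthest in Hspa1a that r was 0.541, 0.705 and 0.905. Fos and Hspa1a had negative r in each tissue (-0.30, -0.60 and -0.21, adjusted permutation p = 0.413, 0.0718 and 0.559), and Hspa1a and Dnajb1 had r = 0.072, 0.524 and 0.185 (0.809, 0.111 and 0.579).

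In crypts the level of Fos moved with that of villus markers. Over the 12 crypt libraries Fos and the mean log2 level of the 7 villus markers had r = 0.907 (permutation p = 0.00011, adjusted over 8 genes 0.00088) and rho = 0.769 (permutation p = 0.0048, adjusted 0.0384). The relation had r = 0.973 within vehicle, 0.708 within vitamin D, 0.837 within the 8 plain-named libraries and 0.78 without vehicle 4 and 6. Fos was highest in vehicle 6 (44.4 FPKM) and vehicle 5 (33.5), the 2 libraries with the most villus marker RNA, and lowest in vehicle 4 (5.56), the library with the least. Junb had r = 0.624 (permutation p = 0.0306, adjusted 0.0612) and rho = 0.524 (permutation p = 0.0842, adjusted 0.112), which became r = 0.912 (permutation p = 8e-05, adjusted 0.00032) once group means were subtracted. Without vehicle 4 and 6 its r was 0.154, so the uncentred relation rests on those libraries. Hspa1b had r = -0.50 (permutation p = 0.0998, adjusted 0.133) and rho = -0.469 (permutation p = 0.127, adjusted 0.145). In bulk libraries a larger share of villus cells and more Fos message per crypt cell cannot be told apart.

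**Figure D5:**
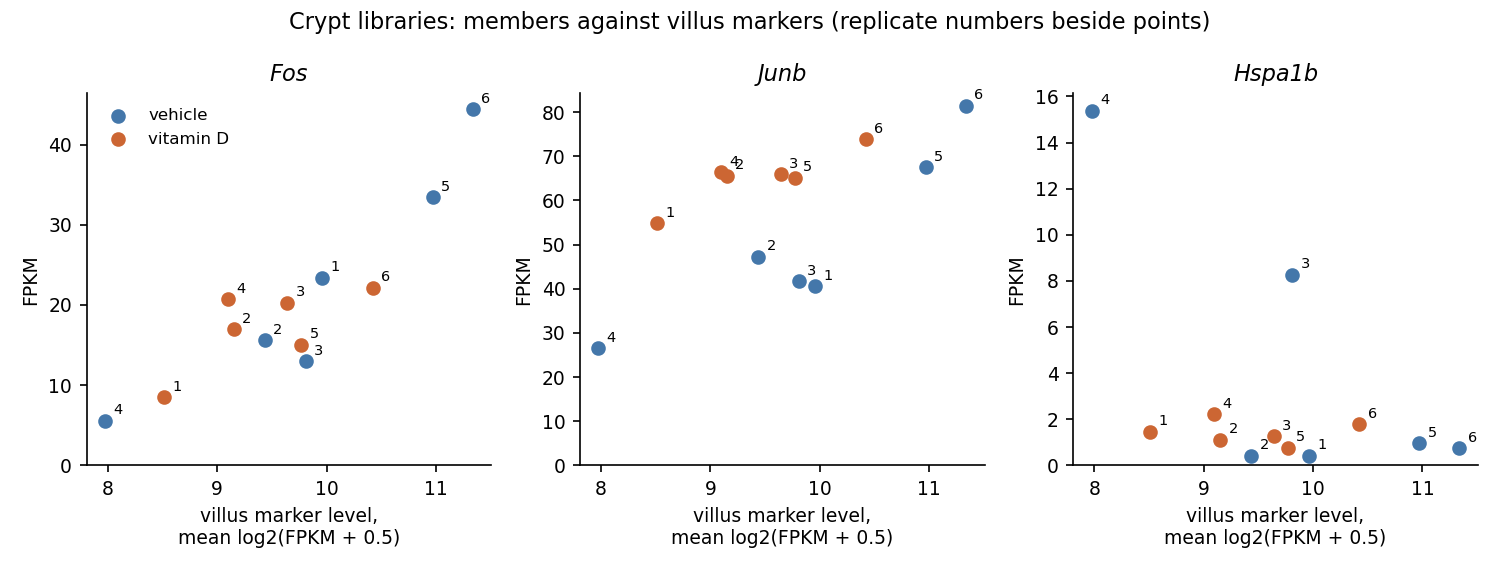
FPKM of Fos, Junb and Hspa1b (vertical axes, from 0) against the villus marker level of the same crypt library (horizontal axis, mean log2(FPKM + 0.5) of 7 markers), with replicate numbers beside the points, blue for vehicle and orange for vitamin D. Fos climbs with the markers (r = 0.907), the vitamin D points of Junb lie above vehicle points of like marker level, and the 2 high Hspa1b points are vehicle 3 and 4.

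The column names of the libraries come in different styles in the tables, with no stated meaning. In each tissue 8 libraries have plain names. With treatment in the fit, 31.9% of all crypt genes differed between plain and other names, 2.08% of villus genes and 3.0% of colon genes. Junb was the 1 member called in crypts, at 51.1 ± 14.6 FPKM in 8 plain and 72.0 ± 7.28 in 4 other libraries (0.54 ± 0.18, limma, adjusted p = 0.0348). In villi Fos was 74.7 ± 19.8 in 8 plain and 44.2 ± 14.7 in 5 other libraries (-0.77 ± 0.23, adjusted p = 0.0949), and Jun 29.8 ± 5.53 and 20.3 ± 5.62 (-0.54 ± 0.16, adjusted p = 0.0938), so neither was called. The other-named crypt libraries include vehicle 5 and 6. Within the plain-named libraries alone, 4 against 4, the vitamin D response of Junb was 0.63 ± 0.16 in villi, 0.72 ± 0.17 in crypts and 0.53 ± 0.21 in colon (adjusted p = 0.134, 0.146 and 0.394).

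No member passed the test of a difference in its vitamin D response between tissues. In 1 limma fit over the 38 libraries and 9311 genes, 0 of 8 members were called in any of the 3 pairs of tissues, where 0.0322% of all genes were called for crypts and villi, 0.494% for colon and villi and 0.0644% for colon and crypts, and 0 had an unadjusted p under 0.05. For Junb the difference was 0.00 ± 0.26 between crypts and villi and -0.08 ± 0.26 between colon and villi, intervals that still admit differences as large as the response itself. For Ier2 it was 0.20 ± 0.17 between crypts and villi (adjusted p = 0.762).

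Other genes of these pathways were followed through 4 lists. Of 30 other immediate early genes, 19, 21 and 24 passed the filter in villi, crypts and colon. By limma 0 were called in each, against 2.47%, 1.46% and 0.823% of all genes tested. At an unadjusted p under 0.05 there were 1 of 19, 5 of 21 and 5 of 24, against 12.2%, 15.3% and 8.05%. The authors' deposited tables called 0, 2 and 1, against 3.6%, 4.28% and 1.64% of all genes. The median log2 fold changes were -0.12, -0.23 and -0.13, against -0.01, -0.01 and 0.00 over all genes. Myc, a transcription factor of growth and proliferation, was 14.9 ± 4.59 FPKM with vehicle and 27.2 ± 7.49 with vitamin D in crypts (0.85 ± 0.22, limma, adjusted p = 0.079), a difference the authors' deposited table calls (adjusted p = 0.0085). Dusp1, a phosphatase that switches off MAP kinases, was 20.7 ± 2.99 and 11.9 ± 4.55 in colon (-0.83 ± 0.19, adjusted p = 0.0744), with 6 of 7 vitamin D libraries below every vehicle library, and the authors' deposited table calls it as well (adjusted p = 0.0218). Sik1, a kinase induced by cyclic AMP, was 2.92 ± 0.69 and 1.90 ± 0.26 in crypts (-0.49 ± 0.15, adjusted p = 0.137); the authors' deposited table has it at an adjusted p of 0.0219. Nfkbiz, an atypical IκB protein, was 38.4 ± 7.12 and 56.6 ± 16.6 in villi (0.53 ± 0.18, adjusted p = 0.19), and Gadd45b, a stress gene of MAP kinase signalling, 14.2 ± 5.08 and 23.1 ± 5.01 in colon (0.73 ± 0.21, adjusted p = 0.206).

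Of 25 other heat shock genes, 18, 20 and 24 passed the filter. By limma Bag3 in villi was the 1 called, against 2.47%, 1.46% and 0.823% of all genes tested in villi, crypts and colon. At an unadjusted p under 0.05 there were 1 of 18, 3 of 20 and 0 of 24, against 12.2%, 15.3% and 8.05%. The median log2 fold changes were -0.14, 0.11 and 0.04. Bag3 encodes a co-chaperone of HSP70 in protein quality control. In villi it read 19.4, 21.6 and 23.7 FPKM with vehicle and 27.8, 40.7 and 46.2 with vitamin D. All 7 vitamin D libraries lay above the vehicle range, where 1.92% of all villus genes tested had groups that did not overlap. Bag3 rose by 0.77 ± 0.14 (limma, adjusted p = 0.0064), and the authors' deposited table gives 4.1e-06. In crypts Bag3 was 30.7 ± 6.71 and 41.2 ± 6.00 (0.43 ± 0.14, adjusted p = 0.167) and in colon 34.2 ± 3.41 and 35.6 ± 6.20 (0.05 ± 0.12, adjusted p = 0.954). Hspa4l, an HSP110 family chaperone, was 6.11 ± 0.58 and 5.08 ± 0.79 in crypts (-0.25 ± 0.11, adjusted p = 0.291). Hsf1, the heat shock factor itself, passed the filter in crypts and colon and had values of -0.09 ± 0.28 and 0.68 ± 0.44 (adjusted p = 0.91 and 0.801).

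Of 15 genes of the unfolded protein and integrated stress responses, 13, 13 and 14 passed the filter, with medians of -0.01, 0.03 and -0.04. By limma Sesn2 in villi was the 1 called, against 2.47%, 1.46% and 0.823% of all genes tested in villi, crypts and colon. At an unadjusted p under 0.05 there were 1 of 13, 0 of 13 and 1 of 14, against 12.2%, 15.3% and 8.05%. Sesn2, a stress-induced inhibitor of mTORC1 signalling, was 3.12 ± 0.90 FPKM with vehicle and 5.32 ± 1.05 with vitamin D in villi. All 7 vitamin D libraries lay above the vehicle range (1.92% of all villus genes tested had groups that did not overlap). Sesn2 rose by 0.71 ± 0.17 (limma, adjusted p = 0.0483). In colon its value was negative (8.37 ± 2.80 and 5.80 ± 0.85, -0.46 ± 0.16, adjusted p = 0.356). Of 14 upstream kinases and factors (ternary complex factors, SRF, CREB and MAP kinases), 12, 12 and 13 passed the filter. In each tissue 0 were called by limma (2.47%, 1.46% and 0.823% of all genes tested) or in the authors' deposited tables (3.6%, 4.28% and 1.64%). At an unadjusted p under 0.05 by limma there were 0 of 12, 0 of 12 and 1 of 13, against 12.2%, 15.3% and 8.05%. Elk1, an SRF partner, in colon was 2.04 ± 0.24 and 2.93 ± 0.92 (0.40 ± 0.16, adjusted p = 0.531).

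Outside the 10 members, the genes whose pattern was most like that of Fos, by r of log2(FPKM + 0.5) after subtracting group means, were Nudt5 (0.911), Cdk18 (0.906) and Rhob (0.894, itself on the list of other immediate early genes) over 13 villus libraries. Jun itself stood at 0.892 there. Over 12 crypt libraries they were Slco2a1 (0.985), Mxd1 (0.976) and Gpr107 (0.969), and Junb stood at 0.916. Over 13 colon libraries they were Ak3 (0.919), D330028D13Rik (0.87) and Ly6g6e (0.865). Most like Hspa1a outside the members were Slc11a2 (0.918), Fasn (0.889) and Ints5 (0.879) in villi, Hsp90aa1 (0.938), Polr3g (0.937) and Hspe1 (0.927) in crypts, and Tppp3 (0.901), Ppp2r5a (0.876) and Sidt2 (0.871) in colon. Hspa1b stood at 0.844, 0.975 and 0.911, above these genes in crypts and colon. No gene was in the top 3 for Fos in more than 1 tissue, and the same held for Hspa1a. The top 3 were picked from 8478 candidate genes in villi, 9745 in crypts and 10396 in colon. Whether unrelated genes would reach such r among so many was not tested. In crypts Fos also moved with the villus marker level (r = 0.916 with group means subtracted). Among the 3 genes most like Hspa1a in crypts, Hsp90aa1 and Hspe1 encode chaperones themselves. Hspa1a lay under the filter in villi and crypts, with medians of 0.385 and 0.314 FPKM. Its highest values there were 1.67 in villus vehicle 4, and 2.99 and 5.23 in crypt vehicle 3 and 4. The r of Hspa1a in villi and crypts can therefore rest on these few libraries.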

How the data were processed

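The authors deposited 1 table of FPKM per tissue, with a column for each library. Their deposited comparisons hold, for each gene, the mean level, the log2 fold change with its error, a test score and a p-value, also adjusted. The submitters' processing notes name kallisto 0.45.0, DESeq 1.28.1, DESeq2 and the build mm9, without saying which step made which value. The members and lists were chosen with earlier results of these data known.

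Genes with an FPKM of at least 1 in at least 6 libraries of a tissue were tested on log2(FPKM + 0.5) by limma 3.58.1 (R 4.3.3; lmFit, then eBayes with trend), comparing vitamin D and vehicle within a tissue, with Benjamini-Hochberg adjustment over all genes tested and a threshold of 0.05. All adjusted p-values are from limma unless the authors' deposited table is named. The fit was also run on simulated data with independent errors. That simulation held no effect of name style, no likeness of same-numbered libraries and no outlying library, so it does not check the fit against these. Permutation tests of correlations were two-sided with 100000 resamples (scipy 1.17.1). Depth was recovered from the steps between low FPKM: 78.8% to 91.6% of values under 30 reads lay within 0.05 of a whole number. No count model was run.

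Named were all members, the called genes of each list or, where none was called, up to 2 of smallest p per tissue, and the 3 genes most like Fos and Hspa1a with a mean FPKM of 2 or more; Hsf1 was named beyond this rule in crypts. Replicate numbers are shared across treatments in the titles. Deviations from group means correlated at 0.102 to 0.465 for same-numbered libraries in villi and 0.119 to 0.545 in crypts, over 0.1 in each pair, and at 0.057 to 0.572 in colon, where the numbers were not taken as pairs. Alternatives covered pseudocounts of 0.1 and 1, no filter and a filter at 5 FPKM, other scalings, replicate blocks, covariates, no trend and leaving out libraries.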

Additional observations from a re-analysis of the deposited data

Results flagged for a closer look

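Within groups of 6 or 7 libraries, 2 of 60 gene and group combinations had a library far from the rest. How many would be marked by chance was not computed, and the combinations share libraries, so they are not independent. Hspa1b in villus vitamin D 4 was at 3.43 FPKM, with the other vitamin D villus libraries at 0.975 to 1.39. Fosb in crypt vehicle 5 was at 0.347 FPKM, with the other vehicle crypt libraries listed at 0, so that any value above 0 would have been marked. Crypt vehicle 5 is the library with the second highest level of villus markers among crypts. The 2 high Hspa1b libraries of crypt vehicle were not marked this way because they stand beside each other.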

How the results depend on the processing

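Sex pattern, villus marker level and smooth muscle marker level as covariates, and leaving out 2 or 4 libraries at once, were chosen after seeing the data; for each value below the cause was not tested. Genes called numbered 99 in villi among plain-named libraries alone (240 with all 13). In crypts (157) they numbered 444 with the replicate block, 391 with name style, 272 with sex pattern and 401 with villus marker level as covariate, 86 among plain-named libraries, 1048 without vehicle 3 and 4 and 99 without vehicle 5 and 6. In colon (95) they numbered 147 with the block and 57 without vitamin D 1 and 2. Leaving out 1 library gave 172 to 220 genes in villi, 105 (without vehicle 1) to 1059 (without vehicle 4) in crypts and 66 to 141 in colon. The number of members called became 1, Junb, on the TPM scale in villi (2.43% of all genes called) and, in crypts, without vehicle 5 and 6 or with villus marker level as covariate. With the block, which pairs libraries by title number, Junb was 0.52, 0.45 and 0.40 (limma, adjusted p = 0.069, 0.173 and 0.245) and no call of a member changed; 3 of 6 vehicle libraries in villi, 3 in crypts and 1 in colon correlated best with the vitamin D library of their own number, and only villi and crypts met the rule for taking the numbers as pairs. Genes whose response differed between tissues numbered 3 (crypts and villi), 46 (colon and villi) and 6 (colon and crypts), with the block 10, 153 and 22, and with no filter on low values 12, 61 and 26. Of the members' fold changes, 351 kept sign and call under the other settings, 15 reversed and 3 were newly called; leaving out 1 library gave 301 and 16 reversed. The reversed values were, for Fos in villi, 0.12 with the block, 0.027 with name style and 0.064 in plain-named libraries; for Ier2 in villi 0.19 in plain-named libraries; for Fos in crypts 0.29 in plain-named libraries, 0.36 without vehicle 5 and 6 and 0.21 with villus marker level; for Egr1 in crypts 0.0057 on the TPM scale, then 0.28, 0.23 and 0.14 in the same order; for Hspa1a in colon -0.19 without vitamin D 1 and 2 and -0.027 with smooth muscle marker level; and for Hspa1b in colon 0.24 in plain-named libraries and 0.018 without vehicle 5 and 6 and vitamin D 6 and 7. Leaving out 1 library moved Fos from -0.24 to 0.12, Ier2 from -0.15 to 0.022 and Hspa1b from -0.40 to 0.077 in villi, Fos from -0.49 to 0.087, Egr1 from -0.23 to 0.13 and Hspa1b from -0.67 to 0.16 in crypts, and Hspa1a from -0.018 to 0.31 in colon. With group means subtracted, Fos and Egr1 in villi (r = 0.621, permutation p adjusted to 0.0484), Fos and Atf3 in crypts (0.641, 0.0484) and Fos and Hspa1a in crypts (-0.672, 0.045) passed. Uncentred, Fos and Hspa1a in crypts had rho = -0.343 (permutation p = 0.277), and r = -0.326 without vehicle 4 and 6. Within the vitamin D libraries of crypts their r had the opposite sign (0.237). Fosb, and Hspa1a in villi and crypts, lay under the filter on low values, and so have no value in the settings that keep it.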
